A study of Homo sapiens with 12 samples.

Results

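JAG1, JAG2 and DLL3 encode ligands of the Notch receptors and are 3 of the 199 genes of the nCounter Dx Stem Cell Panel. They are taken by name, a rule that uses no measured value, although the choice of these genes was made with earlier results of these data known. Their rows were found through the RefSeq identifiers NM_000214.2 (JAG1), NM_145159.1 (JAG2) and NM_203486.2 (DLL3). The panel holds another 2 ligands of the family, DLL1 and DLL4, which are given beside them. Messenger RNA was counted in LX-2, an immortalized line of activated human hepatic stellate cells (HSCs). Cells received a mimic of miR-25, a short duplex that imitates the mature microRNA, or a control mimic derived from a Caenorhabditis elegans sequence, each at 10 pmol/ml with a lipid reagent, and RNA was taken 24 h or 48 h later. There were 3 control and 3 miR-25 samples at each time point, 12 in all, and each replicate was 1 transfection that gave a pair, 1 sample with either mimic, so that there were 6 pairs. By the paper, transfection efficiency was the share of fluorescent cells in a parallel well, not in the wells counted here. The labelled value was 0.59 to 0.81 for the 24 h pairs and 0.42 to 0.65 for the 48 h pairs, so wells are taken to hold transfected and untransfected cells. The labelled miR-25 level relative to control was 62.3, 193 and 350 in the 24 h pairs and 347, 482 and 681 in the 48 h pairs, in the order of replicates 1, 2 and 3. Its relation to the ratios below was not tested.

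Notch receptors are activated by ligands on neighbouring cells. Binding lets an ADAM protease and then the gamma-secretase complex cut the receptor, and the freed intracellular domain enters the nucleus, where it joins RBPJ and Mastermind coactivators to switch on targets such as HES1. JAG1 and JAG2 are the Jagged ligands, DLL1 and DLL4 are activating Delta-like ligands, and DLL3 is a divergent Delta-like protein that sits mainly inside the cell and acts as an inhibitor in the cell that makes it. In the liver, Jagged-1 and Notch receptors are known for their part in stellate cell activation and in bile duct formation.

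The mature sequence of the transfected microRNA is shown first because its seed, bases 2 to 8 and here in capitals, is the part by which a microRNA finds its targets. The sequence is that of RefSeq with GRCh38.p14.
hsa-miR-25-3p: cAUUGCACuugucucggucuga
The seed is shared by 7 mature entries in the same RefSeq table, counting miR-25-3p itself: miR-32-5p, miR-363-3p, miR-367-3p, miR-92b-3p and miR-92a-3p, which is listed for each of its gene copies. The sequence GTGCAAT, which pairs with this seed, was in 0 of the 193 probe target stretches that could be searched, on the strand of the transcript. Those stretches are only 100 bases each, so this says nothing about the rest of a transcript.

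What a count stands for can be seen from the target that the probe pair of each ligand binds. It is 100 bases long for every gene, so that a count does not scale with transcript length, but probe pairs may differ in efficiency and a ratio of counts between genes is a ratio of signals. The full target is given for JAG1 and the first 30 bases for JAG2 and DLL3.
JAG1: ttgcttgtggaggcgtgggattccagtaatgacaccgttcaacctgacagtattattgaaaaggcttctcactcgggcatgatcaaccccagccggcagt
JAG2: atttttgtaaagtttccgtgcgtggcactc
DLL3: ctggagtcagagcgtggatttttgtatttg
The G and C content of the full target was 51% for JAG1, 48% for JAG2 and 53% for DLL3.

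The total count over the panel genes was 321243 to 409581 at 24 h and 107377 to 200821 at 48 h. By the study's transfection records each pair was a transfection of its own, those at 48 h later than those at 24 h. The geometric mean of the 6 positive control probes was 1910 to 2111 at 24 h and lower at 48 h, 1246 to 1441. Time point, transfection, depth and the signal of these control probes therefore cannot be told apart. In all 6 pairs the miR-25 sample had the higher total, by 1.01 to 1.45 times. Of the 6 pairs, replicate 1 at 48 h stood apart: for 92 of the 136 genes that averaged 20 counts or more (67.6%) both of its samples lay outside the range of the other 4 samples at 48 h, against 20.6% and 22.1% for the other 48 h pairs. Replicate 1 at 24 h was next, with 50.7%. The stellate or mesenchymal markers COL1A1, CDH2, CD44 and PLAU were above the detection level in 12 of 12 samples and summed to 4001 to 5141 counts per 100000. Of the epithelial markers, CDH1 was above it in 1 sample, KRT15 in 5 and GJB1 in 10, and their sum was 6.18 to 14.2 counts per 100000. Among the T cell markers CD3D and CD8B were above it in 0 samples, CD8A in 1 and CD4 in 11, with a sum of 10.3 to 29.1 counts per 100000.

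The first question was which ligand gave the most signal. JAG1 did so in 12 of 12 samples, with 72.3% to 85.3% of the counts of the 5 ligands, while JAG2 and DLL3 were low but above background. A gene was taken as detected in a sample when it exceeded a level set by the 8 negative control probes there, their mean with 2 SD added. This level was 10.2 to 16.5 counts in the 24 h samples and 5.52 to 8.40 in the 48 h samples. All 3 genes passed it in 12 of 12 samples, as 66.3% of the panel did, against 11 samples for DLL1 and 4 for DLL4.

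The counts of JAG1 in the control samples were 798, 649 and 602 at 24 h, in the order of replicates 1, 2 and 3, and 114, 377 and 545 at 48 h. In the miR-25 samples JAG1 had 811, 734 and 729 counts after 24 h and 175, 397 and 588 after 48 h. JAG1 was thus 35.1 to 168 times the mean negative probe (median 138) and ranked 56th to 86th among the 199 genes, and both of its lowest counts were in replicate 1 at 48 h. The lowest share of JAG1 in the ligand counts, 72.3% (95% exact binomial interval 66.2% to 77.9%), was in the miR-25 sample of the same replicate.

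JAG2 had 47, 35 and 28 counts in the control samples at 24 h and 8, 26 and 35 at 48 h. The miR-25 samples had 56, 42 and 40 counts of JAG2 at 24 h and 20, 43 and 53 at 48 h. These are 2.46 to 17.2 times the mean negative probe, and the lowest of them, 8 counts in control replicate 1 at 48 h (95% Poisson interval 3.45 to 15.8), lay next to the detection level of 7.36 in that sample. Such intervals cover counting error only.

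DLL3 had 74, 45 and 50 counts in the control samples at 24 h and 12, 21 and 27 at 48 h. With miR-25 it had 79, 59 and 66 counts at 24 h and 24, 27 and 33 at 48 h. DLL3 was 3.69 to 16.2 times the mean negative probe, a range that overlapped that of JAG2, and its rank of 118th to 129th overlapped that of JAG2, 119th to 136th.

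**Figure D1:**
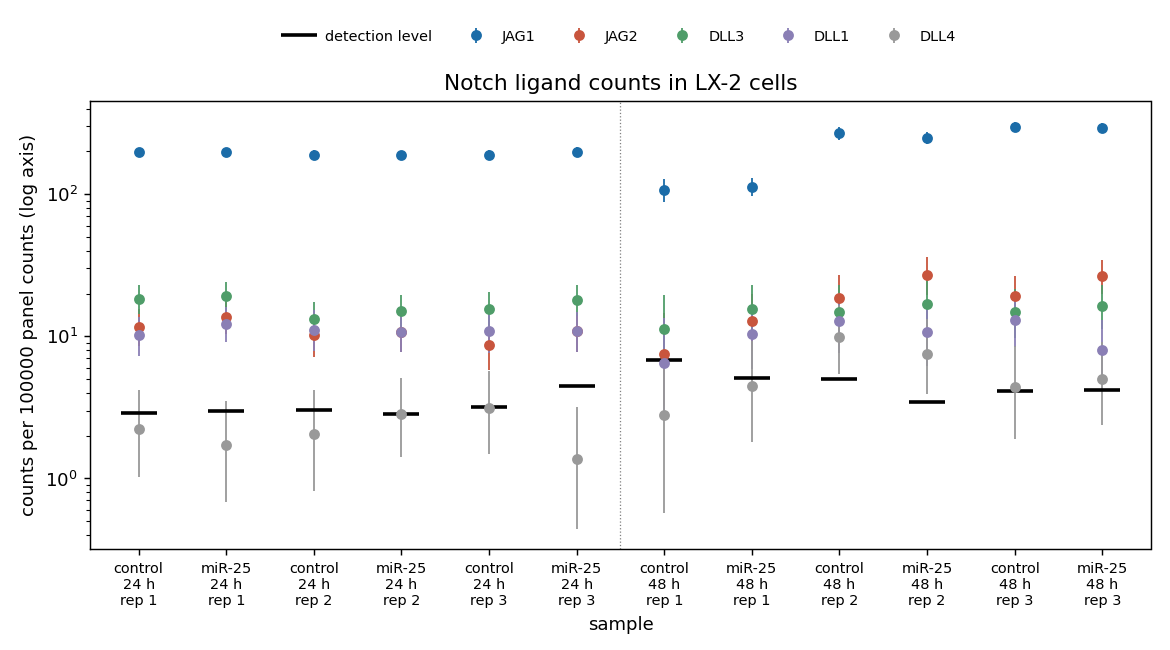
Counts of the 5 Notch ligands per 100000 panel counts (log axis) in each of the 12 samples, with 95% Poisson intervals as bars and the detection level of each sample as a black dash. JAG1 lies at 106 to 297 in every sample, far above JAG2 and DLL3 at 7.45 to 27.0 and 11.2 to 19.3, and DLL4 lies near the detection level.

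The order of the ligands below JAG1 differed between samples. JAG1 exceeded JAG2 by 8.75 to 21.5 times and DLL3 by 7.29 to 20.2 times in counts of the same sample. JAG2 gave fewer counts than DLL3 in 6 of 6 samples at 24 h, with a ratio of JAG2 to DLL3 of 0.56 to 0.78. At 48 h the ratio was 0.67 and 0.83 in the control and miR-25 sample of replicate 1, and it was above 1 in replicates 2 and 3, at 1.24 and 1.30 in the control and 1.59 and 1.61 in the miR-25 samples. With so few counts the order within a sample is mostly not resolved. The 95% exact binomial interval of the ratio lay below 1 in 3 samples, above 1 in 1 sample and included 1 in 8.

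The mean ratio of JAG2 to DLL3 in the miR-25 samples was 0.68 ± 0.060 (SD, n = 3) at 24 h and 1.34 ± 0.44 (SD, n = 3) at 48 h, and an exact two-sided permutation test gave p = 0.1, which is the smallest that 3 against 3 samples allow. In the control samples it was 0.66 ± 0.11 and 1.07 ± 0.35 (SD, n = 3 each), with an exact permutation p of 0.2. At neither treatment could this design reach a threshold of 0.05.

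**Figure D2:**
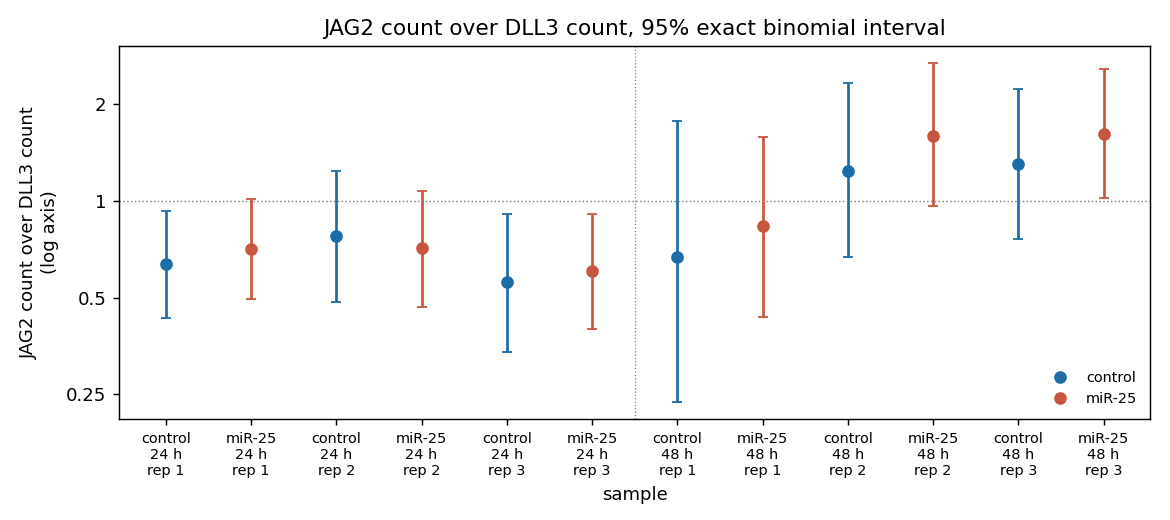
JAG2 count over DLL3 count (log axis) in each sample, with 95% exact binomial intervals as bars, control in blue and miR-25 in red. All 6 samples at 24 h lie below 1, at 0.56 to 0.78, and the 4 samples of 48 h replicates 2 and 3 lie above it, at 1.24 to 1.61.

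The next question was whether miR-25 changed the ligands. JAG1, the ligand with the most signal, differed by a few percent between miR-25 and control, while in 6 of 6 pairs the miR-25 sample had more JAG2 and DLL3 than its control, JAG2 by 1.34 times and DLL3 by 1.17 times on average. None of the 3 passed the test across the genes. All levels below are counts per 100000 panel counts, and the ratio of miR-25 to control was taken within each pair.

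JAG1 stood at 197, 189 and 187 per 100000 in the control samples at 24 h and at 198, 189 and 198 in those with miR-25. At 48 h the levels were 106, 268 and 297 in the control and 113, 250 and 293 in the miR-25 samples. The groups overlapped at both time points, and the ratio within a pair was 1.003, 0.996 and 1.06 in the 24 h pairs and 1.06, 0.932 and 0.985 in the 48 h pairs, which is above 1 in 3 of 6 pairs. The mean ratio was 1.019 ± 0.034 (SD, n = 3) at 24 h and 0.993 ± 0.065 (SD, n = 3) at 48 h, and an exact sign-flip permutation test over the 6 pairs gave p = 0.969 (two-sided). By edgeR's quasi-likelihood test over 136 genes, with the pair as a block, the log2 fold change was 0.03 (SE 0.052, adjusted p = 0.957) at 24 h and -0.03 (SE 0.066, adjusted p = 0.804) at 48 h. The 95% interval of the fold change ran from 0.942 to 1.10 at 24 h, 0.887 to 1.08 at 48 h and 0.942 to 1.07 over both time points.

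The levels of JAG2 at 24 h were 11.6, 10.2 and 8.72 per 100000 in the control and 13.7, 10.8 and 10.9 in the miR-25 samples. The 48 h levels were 7.45, 18.5 and 19.1 in the control and 12.9, 27.0 and 26.4 in the miR-25 samples. The groups overlapped at both time points because replicates differed, but within every pair the miR-25 sample was the higher. The ratio was 1.18, 1.06 and 1.25 at 24 h and 1.73, 1.46 and 1.38 at 48 h, a mean of 1.16 ± 0.097 (SD, n = 3) and 1.52 ± 0.18 (SD, n = 3). Over the 6 pairs an exact two-sided sign-flip permutation test gave p = 0.03125, the smallest it can give, with no adjustment for the 3 genes looked at.

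Across all genes tested, JAG2 had the highest log2 fold change of the 136 at 48 h, 0.54 (SE 0.22), which is 1.46-fold (95% interval 1.05 to 2.02). It was not called, with an edgeR adjusted p of 0.210 and the 8th smallest p of all genes, where 1 gene in all was called (0.735%) and 12.5% had an unadjusted p under 0.05. At 24 h JAG2 had a log2 fold change of 0.21 (SE 0.18, edgeR adjusted p = 0.858), with 0 genes called (0%) and 6.62% at an unadjusted p under 0.05. Over both time points it was again the highest of the 136, at 0.35 (SE 0.14, edgeR adjusted p = 0.267), with 0 genes called (0%) and 15.4% under 0.05 before adjustment. Genes with few counts spread most, and JAG2 had a mean of 36.1. The difference of the effect between 48 h and 24 h was 0.33 on the log2 scale (SE 0.29, edgeR adjusted p = 0.855), in a comparison with 0 calls (0%) and 5.88% under 0.05 before adjustment.

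JAG2 at 48 h was called under 2 alternative settings. Limma on log2 values, which takes no account of counting error, gave 0.59 (SE 0.074, adjusted p = 0.0248), and JAG2 was its only call at 48 h. With the positive control probes as the scale it was 0.81 (SE 0.25, edgeR adjusted p = 0.0123), but there the median of all genes was 0.30, 61 genes were called, each of them higher, and JAG2 lay 0.52 above that median. Over all alternative settings tried, the adjusted p of JAG2 at 48 h ran from 0.0123 to 0.991.

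DLL3 had levels of 18.3, 13.1 and 15.6 per 100000 in the control and 19.3, 15.2 and 18.0 with miR-25 at 24 h. After 48 h the levels were 11.2, 14.9 and 14.7 in the control and 15.5, 17.0 and 16.4 in the miR-25 samples. At 24 h the groups overlapped, and at 48 h the 3 miR-25 samples lay above the 3 control samples, as for 5 of the 136 genes (3.68%). The ratio within a pair was 1.05, 1.15 and 1.15 at 24 h and 1.38, 1.14 and 1.12 at 48 h, a mean of 1.12 ± 0.058 (SD, n = 3) and 1.21 ± 0.15 (SD, n = 3). For DLL3 too the exact two-sided sign-flip permutation test over the 6 pairs gave its smallest possible value, p = 0.03125. This p is not adjusted for the 3 genes looked at. The log2 fold change was 0.15 (SE 0.15, edgeR adjusted p = 0.858) at 24 h, 0.24 (SE 0.24, edgeR adjusted p = 0.705) at 48 h and 0.18 (SE 0.13, edgeR adjusted p = 0.520) over both. The 95% interval of the fold change over both time points, 0.938 to 1.36, includes no change.

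A ratio above 1 in 6 of 6 pairs was found for 7 of the 136 genes (5.15%), among them JAG2 and DLL3 with the 2 highest mean ratios. The other 5 were GLI2, FOSL1, PRKCD, WNT5B and DTX3, with mean ratios of 1.06 to 1.11 (named after their values were seen). Of the 28 genes with a mean of 20 to 100 counts, a range also set after the values were seen, 2 were higher in 6 of 6 pairs (7.14%), and these were JAG2 and DLL3. Both genes were also higher in 6 of 6 pairs on the other scales, together with more of the panel. This count was 9 of the 136 genes (6.62%) after background subtraction, 10 (7.35%) with the total taken without GAPDH and 8 (5.88%) with 5 reference genes. With the positive control probes as the scale it was 36 (26.5%).

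Depth also differed within the pairs. The ratio of DLL3 moved with it over the 6 pairs, and that of JAG2 within the 3 pairs at 48 h. The total of the miR-25 sample over that of its control was 1.01, 1.14 and 1.14 in the 24 h pairs and 1.45, 1.13 and 1.10 in the 48 h pairs. The ratio of DLL3 had nearly the same order, from 1.05 in the pair with the lowest ratio of totals to 1.38 in the pair with the highest, and only replicates 2 and 3 at 24 h, both at 1.15, were exchanged. JAG2 followed the order of the totals at 48 h, with ratios of 1.73, 1.46 and 1.38 in replicates 1, 2 and 3, but not at 24 h. JAG1 followed it at neither time point. The highest ratios of JAG2 and JAG1 (1.73 and 1.06) were in the same pair as that of DLL3, replicate 1 at 48 h. The part of depth in these ratios was not tested. Without this pair JAG2 at 48 h was 0.50 on the log2 scale (SE 0.24, edgeR adjusted p = 0.475) and DLL3 was 0.17 (SE 0.28, edgeR adjusted p = 0.856).

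**Figure D3:**
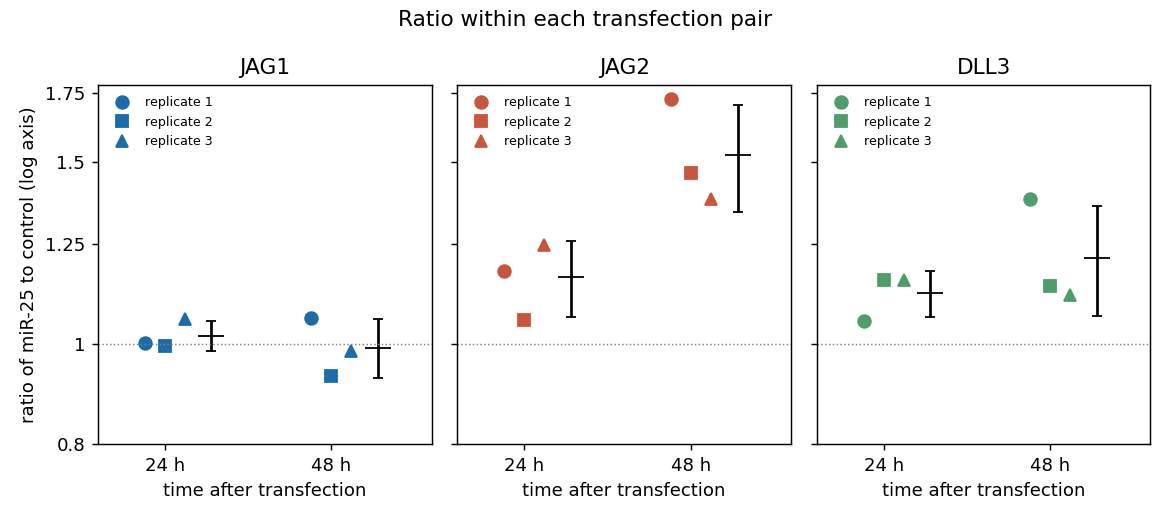
Ratio of miR-25 to control in counts per panel total (log axis) within each transfection pair at 24 h and 48 h, with the mean and SD of 3 pairs in black and the dotted line at no difference. JAG1 lies around 1 (0.932 to 1.06), JAG2 above it in all 6 pairs (1.06 to 1.73) and DLL3 likewise (1.05 to 1.38).

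The study corrects for transfection efficiency. After background subtraction, where the mean ratio of a time point lies above a narrow band around 1, the ratio of each pair is divided by the efficiency of that pair, whatever the size of the ratio. By this rule JAG2 was 1.70 ± 0.33 (SD, n = 3) at 24 h and 3.47 ± 1.88 (SD, n = 3) at 48 h, with 5.63, 2.57 and 2.21 in the 3 pairs at 48 h. DLL3 was 1.61 ± 0.19 and 2.52 ± 1.12 (SD, n = 3 each). JAG1 was 1.0199 ± 0.034 at 24 h and 0.996 ± 0.068 at 48 h (SD, n = 3 each), inside the band and so not corrected. At 24 h the mean lay just under the upper limit, by far less than its SD, so a small change of scale could reverse that outcome. The pair with the highest value for JAG2 and for DLL3 at 48 h was replicate 1, where the efficiency was lowest (0.42).

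The ligands DLL1 and DLL4 showed no such pattern. DLL1 was higher with miR-25 in 2 of 6 pairs, with ratios from 0.608 to 1.58 and a log2 fold change of -0.24 (SE 0.29, edgeR adjusted p = 0.734) at 48 h. DLL4 was higher in 3 of 6 pairs and had too few counts to be tested, 3 to 14 a sample.

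The remaining question was how the ligands at 48 h compared with 24 h. Replicates 2 and 3 at 48 h had more JAG1 and JAG2 than the 24 h samples, and replicate 1 had less JAG1, so that the spread at 48 h was wide. DLL3 lay within the 24 h range of its treatment in 5 of the 6 samples at 48 h. JAG1 in the control samples was 191 ± 5.25 per 100000 (SD, n = 3) at 24 h and 224 ± 103 (SD, n = 3) at 48 h. Replicate 1 stood at 0.555 and 0.578 of the 24 h mean in the control and miR-25 sample, while replicates 2 and 3 stood at 1.40 and 1.55 in the control and 1.28 and 1.502 in the miR-25 samples. No 48 h sample lay within the 24 h range. Such a split, with replicate 1 below and the others above every 24 h sample, was shown by 11 of the 136 genes (8.09%), and the opposite split by 3 (2.21%). Among the 11 were JAG1 itself and the reference genes GUSB and TUBB.

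JAG2 in replicate 1 was 0.732 of the 24 h mean in the control and 1.09 in the miR-25 sample. In replicates 2 and 3 it was 1.81 and 1.88 in the control and 2.29 and 2.24 in the miR-25 samples, above every 24 h sample of the same treatment. For DLL3 the corresponding values were 0.713 and 0.885 in replicate 1, 0.952 and 0.940 in the other control samples and 0.972 and 0.941 in the other miR-25 samples. Of these only the control sample of replicate 1 lay outside the 24 h range.

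**Figure D4:**
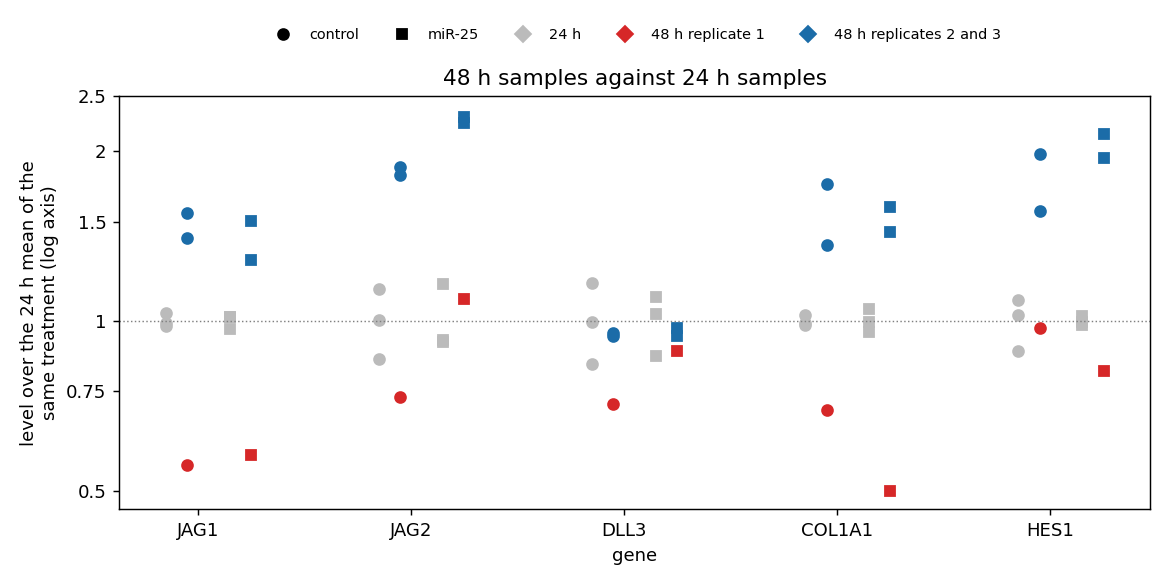
Level of JAG1, JAG2, DLL3, COL1A1 and HES1 in each sample, divided by the 24 h mean of the same treatment (log axis), with control as circles, miR-25 as squares and replicate 1 at 48 h in red. JAG1 and COL1A1 of replicate 1 lie below and those of replicates 2 and 3 above the 24 h samples, JAG2 and HES1 of replicates 2 and 3 lie above them, and DLL3 of replicates 2 and 3 lies at 0.940 to 0.972.

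With all samples none of the ligands was called between the time points. In the control samples the log2 fold change of 48 h over 24 h was 0.24 (SE 0.33, edgeR adjusted p = 0.619) for JAG1, 0.60 (SE 0.34, edgeR adjusted p = 0.257) for JAG2 and -0.19 (SE 0.24, edgeR adjusted p = 0.594) for DLL3, with 7 of the 136 genes called (5.15%). In the miR-25 samples JAG2 was at 0.91 (SE 0.32, edgeR adjusted p = 0.113), which is 1.88-fold with a 95% interval of 1.12 to 3.16. In that comparison 10 genes were called (7.35%), and 31.6% had an unadjusted p under 0.05, JAG2 among them. There JAG1 was at 0.17 (SE 0.31, edgeR adjusted p = 0.699) and DLL3 at -0.10 (SE 0.21, edgeR adjusted p = 0.727).

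Replicate 1 of 48 h was singled out from these same counts, so fits without it, with only replicates 2 and 3 left at 48 h, are a description. In these fits JAG1 and JAG2 were called higher at 48 h in both treatments. JAG1 rose by 1.48-fold (95% interval 1.27 to 1.72, edgeR adjusted p = 0.00209) in the control and 1.39-fold (1.21 to 1.61, edgeR adjusted p = 0.00311) in the miR-25 samples, and JAG2 by 1.83-fold (1.28 to 2.62, edgeR adjusted p = 0.0105) and 2.25-fold (1.63 to 3.11, edgeR adjusted p = 0.00208). DLL3 was at 0.940-fold (0.650 to 1.36) and 0.954-fold (0.679 to 1.34), with edgeR adjusted p of 0.786 and 0.823. Those fits called many genes, 54 in the control (39.7%) and 62 in the miR-25 samples (45.6%), of which 37 (27.2%) and 38 (27.9%) were higher at 48 h. Without replicate 3 of 48 h instead, the log2 fold change of JAG1 turned to -0.02 in the control and -0.11 in the miR-25 samples. Neither JAG1 nor JAG2 was called when replicate 2 or replicate 3 of 48 h was left out. The edgeR adjusted p of JAG2 was then 0.493 and 0.551 in the control and 0.290 and 0.240 in the miR-25 samples. Scaled by the positive control probes with all samples, the median of all genes was -0.61 in the control and -0.44 in the miR-25 samples, and JAG1 was -0.41 and -0.32, which is 0.20 and 0.13 above that median, against 0.11 and 0.08 with the panel total.

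**Figure D5:**
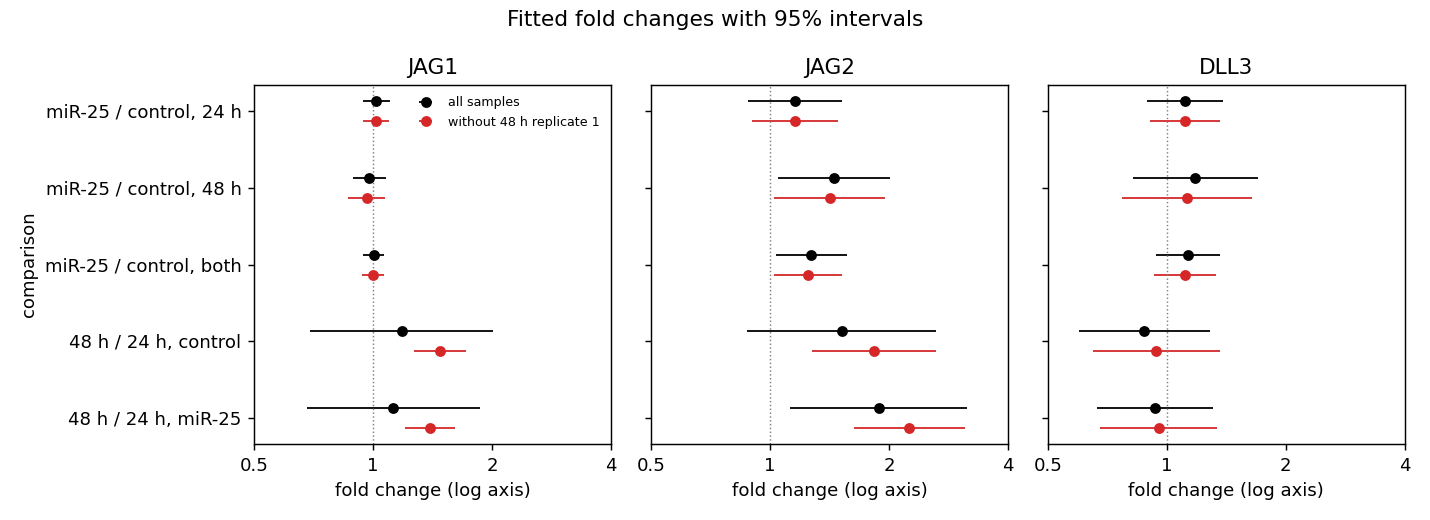
Fold changes of JAG1, JAG2 and DLL3 (log axis) in 5 comparisons by edgeR with 95% intervals, from all samples in black and without replicate 1 of 48 h in red. The intervals of JAG1 for miR-25 over control lie between 0.863 and 1.10, and those for 48 h over 24 h narrow from 0.691 to 2.01 to 1.27 to 1.72 in the control samples when that replicate is left out.

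The genes whose pattern over the 12 samples was most like that of a ligand were found by the root-mean-square difference of log2 levels, each centred on its own mean, which is a description over samples that share depth and transfection. Nearest to JAG1 were COL1A1, a fibrillar collagen chain, at 0.13, the Wnt receptor FZD2 at 0.16 and GUSB, a lysosomal enzyme and reference gene, at 0.18, against a median of 0.46 over all genes. COL1A1 had a mean of 1072 per 100000 at 24 h, 640 in replicate 1 at 48 h and 1643 in replicates 2 and 3 at 48 h. Nearest to JAG2 were the Notch target HES1 at 0.27, FZD2 at 0.34 and the Wnt ligand WNT5A at 0.36 (median 0.57). HES1 was at 34.3 per 100000 at 24 h, 30.6 in replicate 1 at 48 h and 65.3 in the other 48 h samples. DLL3 was most like the nuclear receptor PPARD at 0.11, the casein kinase subunit CSNK2A1 at 0.17 and the phosphatase subunit PPP2CA at 0.18 (median 0.34). A gene with the same level in all samples would differ by the ligand's own spread around its mean. That spread was 0.45 for JAG1, 0.56 for JAG2 and 0.20 for DLL3, so CSNK2A1 and PPP2CA were little nearer to DLL3 than such a gene. JAG1 and JAG2 differed by 0.38, JAG1 and DLL3 by 0.41 and JAG2 and DLL3 by 0.52.

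The list of other Notch genes held 38 receptors, glycosyltransferases, proteases, nuclear factors, modulators and ligands. It was not complete, since NCSTN, a gamma-secretase subunit that was also measured, was not in it. Of the 38, 35 had enough counts to be tested and 34 were above the detection level in 12 of 12 samples. With miR-25, 0 of the 35 were called at 24 h, at 48 h or over both by edgeR, beside 0, 1 and 0 of all 136 genes. At an unadjusted p under 0.05 there were 0, 3 and 3 of the 35 (0%, 8.57% and 8.57%), beside 9, 17 and 21 of the 136 (6.62%, 12.5% and 15.4%). Their median log2 fold change was 0.06 at 24 h and -0.01 at 48 h, beside 0.03 and -0.01 for all genes. The lowest at both time points was the receptor NOTCH3, at -0.17 (edgeR adjusted p = 0.899) and -0.39 (edgeR adjusted p = 0.385). The highest were APH1A, a gamma-secretase subunit, at 0.17 at 24 h (edgeR adjusted p = 0.858) and DTX2, a Deltex ubiquitin ligase, at 0.25 at 48 h (edgeR adjusted p = 0.540).

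Between the time points 3 of the 35 (8.57%) were called in each treatment, beside 5.15% of all genes in the control and 7.35% in the miR-25 samples. FURIN, the convertase that processes Notch receptors, rose at 48 h by 1.11 (control, edgeR adjusted p = 0.00277) and 1.08 (miR-25, edgeR adjusted p = 0.00664) on the log2 scale. RBPJ, the DNA-binding partner of the Notch intracellular domain, fell by 0.48 (edgeR adjusted p = 0.0170) and 0.57 (edgeR adjusted p = 0.0260). The third was NOTCH3 in the control samples, higher by 1.44 (edgeR adjusted p = 0.0157), and the adaptor NUMBL in the miR-25 samples, higher by 0.53 (edgeR adjusted p = 0.0260).

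Without replicate 1 of 48 h, 10 of the 35 were called higher and 3 lower in the control samples, and 11 and 4 in the miR-25 samples. These are 37.1% and 42.9% of the list, beside 39.7% and 45.6% of all genes tested. Their median was 0.23 and 0.17, beside 0.11 and 0.07 for all genes. HES1 was among those called higher, at 0.83 (edgeR adjusted p = 0.00456) and 1.03 (edgeR adjusted p = 0.000305), as was the coactivator MAML3 at 1.26 (edgeR adjusted p = 0.000692) and 0.98 (edgeR adjusted p = 0.00914). The highest was NOTCH3, at 1.47 (edgeR adjusted p = 0.00154) and 1.32 (edgeR adjusted p = 0.00548). NOTCH2 was called lower, at -0.47 (edgeR adjusted p = 0.0110) and -0.60 (edgeR adjusted p = 0.000763). RBPJ was also lower, at -0.46 (edgeR adjusted p = 0.000555) and -0.49 (edgeR adjusted p = 0.000305), as was TLE1 at -0.34 (edgeR adjusted p = 0.0407) and -0.46 (edgeR adjusted p = 0.00133). In the miR-25 samples the coactivator EP300 was lowest, at -0.61 (edgeR adjusted p = 0.00951).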

How the data were processed

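Messenger RNA of 199 genes was measured in 12 samples of LX-2 cells with the nCounter Dx Stem Cell Panel. The authors deposited raw counts per probe, read with the nSolver software, before background correction or scaling, with 8 negative and 6 positive control probes. Gene names came from the panel list for 193 identifiers and from a RefSeq table (GRCh38.p14) for 6. No coordinates are given, as counts of probes have no genome build. The transfections are separate samples in the study's records, so p-values measure the spread between transfections of 1 cell line. Those of edgeR measure counting error instead where that was the larger. For JAG2 and DLL3 at 24 h the standard errors, 0.18 and 0.15, were the same with and without replicate 1 of 48 h, as were the unadjusted edgeR p-values, 0.255 and 0.309.

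The quasi-likelihood test of edgeR (version 4.0.16 under R 4.3.3) was applied to the 136 genes that averaged 20 counts or more, with the panel total as library size and a threshold of 0.05 after Benjamini-Hochberg adjustment. The miR-25 comparisons used all 12 samples with the transfection pair as a block. The time comparisons used the 6 control or the 6 miR-25 samples without a block. Standard errors were held at no less than the counting error. Depth was 107377 to 409581 counts per sample. The fits and their code were tested on simulated counts with no differences between pairs and a smaller spread than the time comparisons had. Those simulations cannot show how the fits behave at that spread or with a pair that stands apart.

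The pairing was taken from the shared transfection efficiency in the labels and from the study's ratios within replicates. The deviations of both samples of a pair from their group means correlated at 0.283 to 0.887 in the 6 pairs. Within each group, samples differed by more than sampling noise (chi-square per degree of freedom 2.52 to 73.1), and each counted as 1 replicate.

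Alternatives were TMM, the total without GAPDH, 5 reference genes (GAPDH, TUBB, GUSB, CLTC and HPRT1) or the positive probes as scale, background subtraction, filters at 10, at 50 and none, DESeq2 1.42.0, limma 3.58.1 with a pseudocount of 1, other blocks or samples, and each pair left out. The ratios, intervals and permutation tests used scipy 1.17.1, pandas 2.3.3 and numpy 2.4.6 in python 3.11.15, and figures matplotlib 3.10.9.

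The genes named are the ligands of the panel, Notch genes that passed a test or were highest or lowest in a comparison, the 3 genes most like each of JAG1, JAG2 and DLL3, marker genes and reference genes. Exceptions are stated. The members and all lists were chosen with earlier results of these data known. The Notch list held only genes named in the panel list. The pull-down experiment of the study was not used here.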

Additional observations from a re-analysis of the deposited data

Results flagged for a closer look

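The ratio of miR-25 to control for DLL3 had 1 value far from the others among the 6 pairs: 1.38 in replicate 1 at 48 h, against 1.05 to 1.15 in the other 5. On the log2 scale the gap to the nearest pair was 0.665 of the whole range, above Dixon's critical value of 0.625 for 6 samples. Chance alone flags about 1 in 20 such groups. This ratio rests on 12 counts in the control and 24 in the miR-25 sample, the lowest counts of DLL3 in their groups.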

How the results depend on the processing

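Counting error limits JAG2 and DLL3, with means of 36.1 and 43.1 counts, and a filter at 50 counts left them out. The main dependence is on the scale and on replicate 1 at 48 h. The cause of the differences below was not tested. For the number of genes called, the time point alone gave 3 at 24 h and 3 at 48 h (main 0 and 1), no filter gave 3 and no replicate block gave 0 at 48 h, and the positive control probes gave 61 at 48 h and 57 over both. For the difference of the effects TMM, the total without GAPDH, DESeq2 and no filter gave 1 each (main 0). Between time points the control samples had 27 calls with the positive probes, 22 with DESeq2 and 0 with a replicate block (main 7). The miR-25 samples had 17 with TMM, 4 with reference genes, 49 with the positive probes, 35 with DESeq2, 6 with a filter at 10, 6 with none, 0 with a replicate block and 17 with all 12 samples (main 10).

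JAG1 changed sign around 0 without a call: at 24 h -0.0067 with TMM and -0.012 with DESeq2, over both -0.019 with TMM, -0.0045 with reference genes, -0.021 with DESeq2 and -0.0082 without the replicate block. With the positive probes it was 0.27 at 48 h, 0.15 for the difference, -0.41 for time in the control and -0.32 in the miR-25 samples, where JAG2 was -0.10 in the control samples. JAG2 was called at 48 h with the positive probes (0.81) and limma (0.59), and over both with the positive probes (0.52). The mean ratio of JAG1 with the positive probes was 1.09 and 1.24 at 24 h and 48 h, that of DLL3 1.21 and 1.53 and that of JAG2 at 48 h 1.92. Background subtraction gave 1.79 for JAG2 at 48 h. Efficiency correction gave 1.70 and 3.47 for JAG2 and 1.61 and 2.52 for DLL3.

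Leaving out 1 pair at a time gave 0 to 3 calls at 24 h, 0 to 2 at 48 h, 0 to 4 over both, 0 to 0 for the difference, 1 to 54 for time in the control and 0 to 62 in the miR-25 samples. The highest of these at 24 h, over both and for time was without replicate 1 of 48 h. JAG1 ranged from -0.00048 to 0.042 at 24 h, -0.056 to 0.0076 at 48 h, -0.016 to 0.021 over both, -0.020 to 0.56 for time in the control and -0.11 to 0.48 in the miR-25 samples. JAG2 ranged from 0.39 to 0.87 for time in the control and 0.76 to 1.17 in the miR-25 samples. Replicate numbers do not pair the time points (correlations -0.091 to 0.063), and the replicate block there gave 0 calls in each treatment. The other 255 values under other settings and 119 with a pair left out kept their direction and side of the threshold, or moved by less than the spread.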
